A study of Mus musculus with 2 samples.

Results

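Vegfa, the gene for vascular endothelial growth factor A, was followed through NK cells taken from mouse tumors. It is 1 of 27998 gene rows in the deposited count tables, and it was selected on measured values of these same libraries, its level, its share of cells and the genes correlated with it, so these values are given as a description. The tumors had grown subcutaneously from RMA-S cells, a mouse lymphoma line low in surface MHC class I, and were taken at 2 weeks. The infiltrating cells had been sorted for NK1.1 and against CD3ε and captured with the 10x Chromium 3′ chemistry, which counts transcripts by unique molecular identifiers (UMIs). The KO library came from mice with Hif1a deleted in NK cells and the WT library from wild-type mice. The labels name neither the Cre driver nor the deleted part of Hif1a, and they give no age, no number of mice or tumors per library and no batch. Vegfa was read in barcodes with 500 or more detected genes and no more than 10% of their UMIs mitochondrial, which were 3067 cells in the KO library and 3555 cells in the WT library.

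VEGF-A is a secreted factor that makes endothelial cells divide, migrate and form vessels, chiefly through the receptor tyrosine kinase encoded by Kdr, with Flt1 as a tighter-binding and partly decoy receptor and the neuropilins as co-receptors. Its gene is a classic target of the hypoxia-inducible factors, dimers of an oxygen-labile subunit such as Hif1a with Arnt, which bind short core motifs in enhancers and promoters. The transcription factors AP-1, NF-kB and Sp1 have also been reported to act on it, and the stability of its message is set by RNA-binding proteins. Tumor cells and macrophages are its best-known sources in tumors, and lymphocytes, NK cells included, can make it too.

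The annotated gene (ENSMUSG00000023951.17) lies on the minus strand at chr17:46016993-46032369 of GRCm38 in GENCODE M21. It has 13 annotated transcripts, 8 of them coding, and no other annotated gene overlaps it. The coding transcripts end at 4 distinct 3′ positions spread over 1865 bases, and a 3′ library reads tags near whichever end is used, so isoforms are not told apart. Because Vegfa is set below against genes of hypoxia, AP-1 and NF-kB, the 250 bases before the RefSeq start are shown. They lie at chr17:46032378-46032627 on the minus strand of GRCm38.p6, are written 5′ to 3′ on the gene's strand, and belong to the outermost of 2 RefSeq promoter windows listed for Vegfa. Capitals mark the matches to the motifs searched.

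Vegfa promoter window: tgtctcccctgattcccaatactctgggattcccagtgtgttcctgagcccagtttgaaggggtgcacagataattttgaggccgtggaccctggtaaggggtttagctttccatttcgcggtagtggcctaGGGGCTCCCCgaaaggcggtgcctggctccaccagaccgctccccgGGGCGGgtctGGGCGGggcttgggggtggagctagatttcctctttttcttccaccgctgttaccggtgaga

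Each motif was searched on both strands, and the same 250 bases were searched before 32851 RefSeq starts. The hypoxia response cores ACGTG and GCGTG had 0 matches in the Vegfa window, while 16.6% of all windows held the first and 28.2% the second. The AP-1 motif TGANTCA and the cAMP response motif TGACGTCA had 0 matches too, and 6.75% and 1.55% of all windows held them. The loose NF-kB motif GGGNNNNNCC matched 1 palindrome-like site, read on both strands, 109 to 118 bases before the start, and 45.8% of all windows held such a match. The GC box GGGCGG matched 2 sites between 57 and 72 bases before the start, against 32.7% of windows with any. A match is only a string of letters in this window, and regulatory sites farther away were not searched.

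The KO library held 13222535 UMIs in its kept cells, with a median of 3793 UMIs and 1512 genes per cell. The WT library was deeper, with 19462712 UMIs and medians of 4440 UMIs and 1629 genes. Across the 2 libraries 19 barcode sequences were shared. The targeted gene Hif1a had 800 UMIs or 60.5 CPM (UMIs per 1e6 UMIs of the kept cells) in KO cells and 1132 UMIs or 58.2 CPM in WT cells, and as 3′ tags may come from outside the deleted part, this checks nothing about the deletion. With 1 library per genotype no difference here has a replicate check, no test was possible, and each comparison is one of these libraries and not of the genotypes. All intervals are exact 95% intervals that cover counting error only, and they take UMIs as independent.

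Vegfa mRNA was far more abundant in the KO library. It had 3868 UMIs in KO cells, or 292.5 CPM (283 to 302), and 1195 UMIs in WT cells, or 61.4 CPM (58.0 to 65.0). The KO level was 4.76-fold the WT level (4.46 to 5.09), a log2 ratio of 2.25 (2.16 to 2.35). That placed Vegfa at rank 8 from the highest among 8155 genes that had 200 or more UMIs in total and a median log2 ratio of 0.046. Of these genes 6.08% passed 1.5-fold upwards in the KO library and 2.87% downwards. In alternatives chosen after the data had been seen, the log2 ratio was 0.68 when KO clusters of cells were weighted to their WT shares, and 0.71 without clusters 1 and 5, which were left out because they were richest in Vegfa and are described below.

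More KO cells carried the transcript, and those that did carried more of it. Before any correction for depth, 1240 KO cells (40.4%, 38.7% to 42.2%) and 657 WT cells (18.5%, 17.2% to 19.8%) had at least 1 Vegfa UMI. After each cell was thinned to 2500 UMIs, which left out 418 KO and 92 WT cells as too shallow, the share was 867 of 2649 KO cells (32.7%, 30.9% to 34.6%) and 404 of 3463 WT cells (11.7%, 10.6% to 12.8%). T-like cells, which were recognised by Cd3e, Cd3g and Cd3d, are used here as cells with little Vegfa. Their thinned shares were 5.97% of 67 cells in the KO library (1.65% to 14.6%) and 1.77% of 113 cells in the WT library (0.22% to 6.25%). Their median depth was 4537 UMIs in the KO library and 4681.5 UMIs in the WT library, so they were no shallower than the cells at large. Thinned KO and WT cells stood at 322 CPM and 67.9 CPM.

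Vegfa UMIs were unevenly spread over cells in both libraries. If the UMIs had been scattered at random over cells in proportion to their depth, 67.2% of KO cells and 27.1% of WT cells would have held at least 1. Both lie well above the observed shares. The variance over cells was 5.04 times the mean in the KO library and 2.70 times the mean in the WT library. Cells with 5 or more Vegfa UMIs numbered 261 in the KO library (8.51% of cells) and held 53.9% of its Vegfa UMIs, whereas 37 such WT cells (1.04%) held 20.1% of theirs. A single KO cell reached 25 UMIs and a single WT cell reached 14. The 10 highest cells held 5.22% of the Vegfa UMIs in the KO library and 7.78% in the WT library, so neither level rested on a handful of cells.

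**Figure D1:**
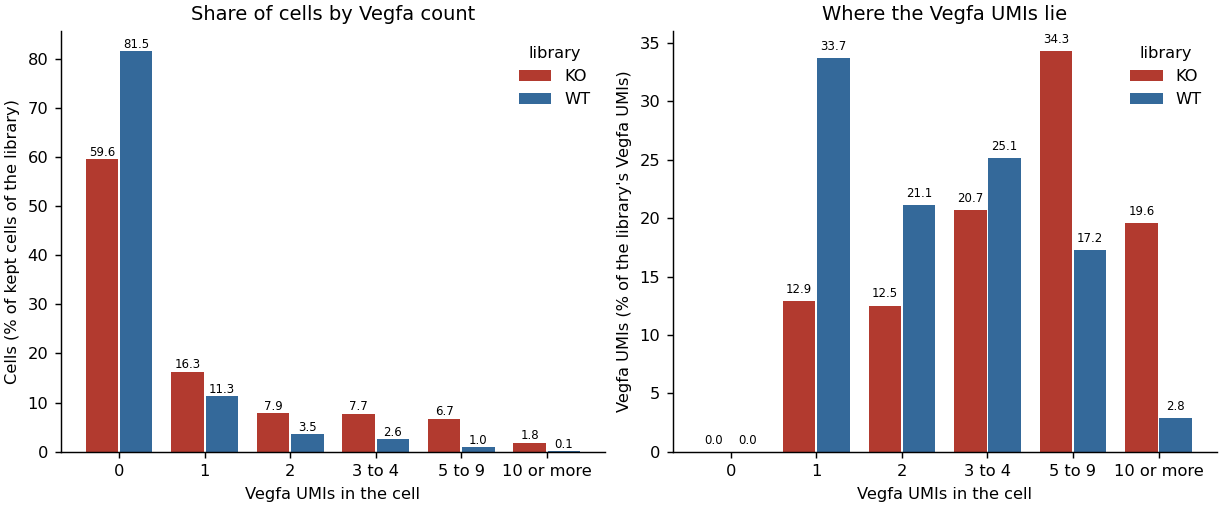
Share of kept cells (left, percent) and share of each library's Vegfa UMIs (right, percent) by the number of Vegfa UMIs in the cell, unthinned, for the KO library (red) and the WT library (blue). Cells with 0 Vegfa UMIs made up 59.6% of KO and 81.5% of WT cells, and cells with 5 to 9 UMIs held 34.3% of KO and 17.2% of WT Vegfa UMIs.

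The KO library was above the WT library in each of 4 depth classes, which were cut over both libraries together. In the shallowest class Vegfa stood at 384 CPM in KO cells and 93.8 CPM in WT cells, and in the deepest class at 202 CPM in KO cells and 52.3 CPM in WT cells. The classes between them stood at 353 and 288 CPM in KO cells and at 68.4 and 63.3 CPM in WT cells. Within each library the level per 1e6 UMIs was thus lower in deeper cells.

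Other ligands and the receptors of the family were scarce in both libraries. Vegfb, a ligand of Flt1, had 95 KO and 131 WT UMIs, or 7.18 CPM in KO cells and 6.73 CPM in WT cells. Vegfc, which acts mainly on lymphatic endothelium, had 165 KO and 180 WT UMIs, with a log2 ratio of 0.43 (0.12 to 0.75). The co-receptor genes Nrp1 and Nrp2 had 34 and 122 UMIs in the KO library and 60 and 99 UMIs in the WT library. The receptor genes Flt1 and Kdr had 3 UMIs and 1 UMI in the KO library and 1 and 0 UMIs in the WT library, and Flt4 had 0 KO and 1 WT UMI. The ligand gene Figf, the older symbol of Vegfd, had 7 KO UMIs and 1 WT UMI, and Pgf had 0 in both. None of these genes reached 200 UMIs in each library, so none entered the correlations that follow.

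Genes that varied with Vegfa from cell to cell were ranked by Pearson's r of log1p-transformed UMIs per 10000, computed over the 3067 KO cells and over the 3555 WT cells separately. The points of each r share 1 library and its sort, depth differs among them, and sparse counts keep r small, so these values describe the libraries and carry no p-value. Of 5873 genes with at least 200 UMIs in each library, 148 (2.52%) had r of 0.10 or more in the KO library, 71 (1.21%) in the WT library and 64 (1.09%) in both. On the negative side, 18 genes (0.306%) had r of -0.10 or less in the KO library, 13 (0.221%) in the WT library and 5 (0.0851%) in both. The median r over all 5873 genes was -0.0060 in the KO library and -0.0013 in the WT library. When cells had first been thinned to 2500 UMIs, 31 genes were at 0.10 or more in both libraries, and all 31 were among the 64.

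The genes whose pattern was most like that of Vegfa, by the mean of both r values, were led by the kinase gene Pim1, with r of 0.37 in KO cells and 0.25 in WT cells. Next came Vps37b, which encodes a subunit of the endosomal sorting machinery (KO 0.36, WT 0.24), and Nfkbia, the NF-kB inhibitor that is itself an NF-kB target (KO 0.37, WT 0.23). The orphan nuclear receptor gene Nr4a1 had the highest r of any gene in the KO library (0.38) and stood at 0.22 in the WT library. Tnfaip3, the ubiquitin-editing brake on NF-kB known as A20, had r of 0.35 in KO cells and 0.22 in WT cells. Ifrd1, a transcriptional co-regulator gene, had the highest r of any gene in the WT library (0.25) and 0.31 in the KO library. The other 9 of the 15 highest were Ubald2, Fosl2, Nfkbiz, Junb, Crem, Csrnp1, Btg1, Kdm6b and Litaf, with r between 0.26 and 0.36 in KO cells and between 0.17 and 0.23 in WT cells. Among them are genes of an AP-1 subunit (Fosl2, Junb), a cAMP-responsive transcription factor (Crem), an antiproliferative factor (Btg1) and a histone demethylase (Kdm6b).

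**Figure D2:**
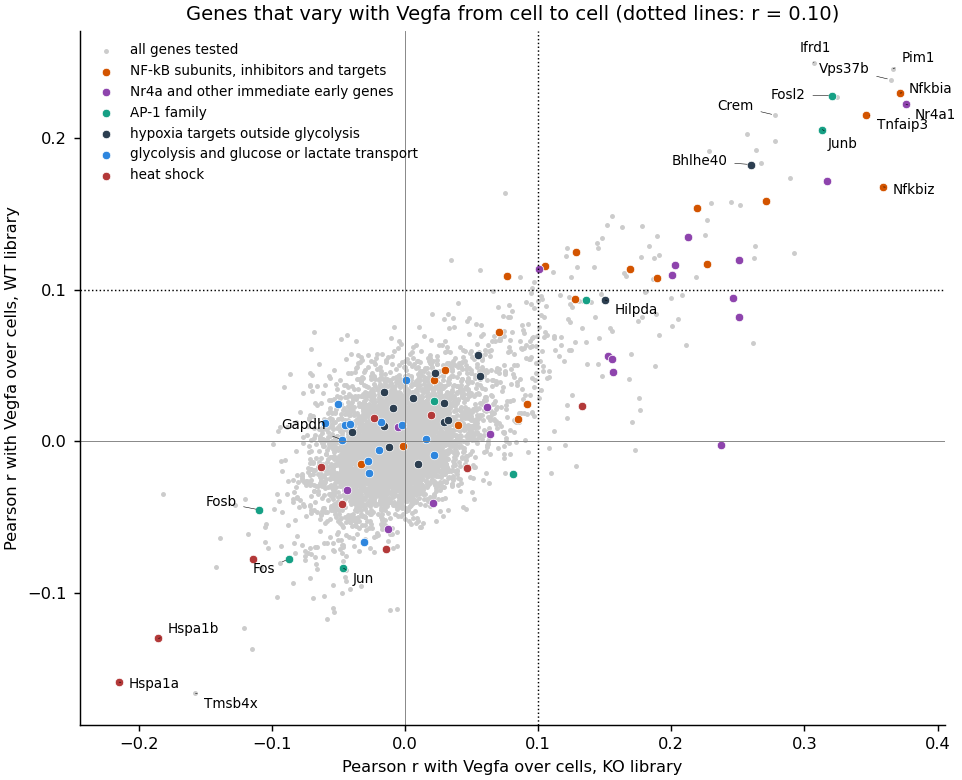
Pearson r of each gene with Vegfa over cells in the KO library (horizontal) and in the WT library (vertical), 5873 genes, with members of 6 gene lists coloured and dotted lines at r of 0.10. NF-kB genes, Nr4a1, Fosl2 and Junb lie at the upper right, glycolysis genes lie around 0, and Hspa1a lies at the lower left with -0.21 in KO cells and -0.16 in WT cells.

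The levels behind these values are given for Vegfa-positive and Vegfa-negative cells, separated on thinned counts, and since the 15 genes were selected on r over the same cells, a higher level in positive cells was fixed by that choice. Pim1 stood at 2991 CPM in the 867 positive KO cells and 1704 CPM in the 1782 negative ones, and at 1627 CPM in the 404 positive WT cells and 901 CPM in the 3059 negative ones. Nr4a1 stood at 1645 CPM in positive and 861 CPM in negative KO cells, and at 455 CPM in positive and 208 CPM in negative WT cells. On average, Vegfa-positive WT cells thus held less Nr4a1 than Vegfa-negative KO cells. Ifrd1 showed the widest gap of the 15 in WT cells, with 301 CPM in positive and 117 CPM in negative cells, a log2 difference of 1.36 (1.17 to 1.55). Over all 5873 genes, 2.16% passed 1.5-fold upwards and 2.35% downwards in positive against negative KO cells, as did 3.44% and 3.63% in WT cells.

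Of the lists examined, that of NF-kB had the most members past 0.10 in both libraries. It held 22 subunits, inhibitors and targets, and 20 were abundant enough. Of these, 11 had r of 0.10 or more in the KO library, 11 in the WT library and 10 in both, with a median r of 0.12 in KO cells and 0.11 in WT cells. Over all genes tested the shares were 2.52% in the KO library, 1.21% in the WT library and 1.09% in both. Among subunits, Nfkb1 (KO 0.22, WT 0.15) and Rel (KO 0.11, WT 0.12) were past 0.10 in both libraries, and Rela (KO 0.092, WT 0.024) was not in either. Relb reached 0.13 in KO cells and 0.094 in WT cells, and Nfkb2 reached 0.077 in KO cells and 0.11 in WT cells. Among inhibitors and atypical IkB proteins, Nfkbia was joined by Nfkbiz (KO 0.36, WT 0.17), Nfkbid (KO 0.27, WT 0.16) and Nfkbie (KO 0.13, WT 0.13), while Nfkbib (KO 0.071, WT 0.072) and Bcl3 (KO 0.085, WT 0.015) were not past it. Among targets outside the feedback loop, the adhesion molecule gene Icam1 (KO 0.23, WT 0.12), the signalling adaptor gene Traf1 (KO 0.19, WT 0.11) and the anti-apoptotic gene Birc3 (KO 0.17, WT 0.11) were past 0.10 in both. The targets Sod2, Cflar, Tnip1, Tank and Birc2 lay between -0.033 and 0.040 in KO cells and between -0.015 and 0.047 in WT cells. Between the libraries, 11 of the 20 passed 1.5-fold upwards in the KO library and 0 downwards, and their median log2 ratio was 0.60. Of all genes ranked, 6.08% passed upwards and 2.87% downwards.

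The AP-1 family was divided. Of 8 testable members of 12, 3 had r of 0.10 or more in the KO library, 2 in the WT library and 2 in both, and the median was 0.052 in KO cells and 0.0026 in WT cells. All genes tested had shares of 2.52% in the KO library, 1.21% in the WT library and 1.09% in both. Fosl2 (KO 0.32, WT 0.23) and Junb (KO 0.31, WT 0.21) were among the 15 genes nearest to Vegfa, and Jund followed with 0.14 in KO cells and 0.093 in WT cells. The members Fos (KO -0.087, WT -0.078), Fosb (KO -0.11, WT -0.045) and Jun (KO -0.046, WT -0.084) went the other way. Batf (KO 0.022, WT 0.027) and Atf3 (KO 0.081, WT -0.022), whose proteins pair with Jun proteins, were past 0.10 in neither library. The same division was seen between the libraries. Fosl2 was at 499 CPM in KO cells and 156 CPM in WT cells and Junb at 2666 CPM in KO cells and 1265 CPM in WT cells, whereas Fos was at 381 CPM in KO cells and 698 CPM in WT cells and Fosb at 133 CPM in KO cells and 214 CPM in WT cells. Summed over Fosl2, Junb and Jund, a grouping chosen after their values had been seen, r with Vegfa was 0.31 in KO cells and 0.20 in WT cells, and over Fos, Fosb and Jun it was -0.076 in KO cells and -0.087 in WT cells.

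Other immediate early genes, which cells switch on within minutes of a stimulus, had more members past 0.10 in the KO library than in the WT library, as had all genes tested. Of 19 testable, 13 had r of 0.10 or more in the KO library and 7 in the WT library, all 7 of them in both, with medians of 0.16 in KO cells and 0.056 in WT cells. Over all genes the counts were 148 in the KO library and 71 in the WT library. Nr4a1 and Csrnp1 (KO 0.32, WT 0.17) were past 0.10 in both. Ier2 (KO 0.25, WT 0.082), Ier5 (KO 0.25, WT 0.095) and the phosphatase gene Dusp1 (KO 0.16, WT 0.055) were past it in the KO library alone. The antiproliferative gene Btg2 reached 0.24 in KO cells and -0.0027 in WT cells, and the zinc finger gene Klf6 stood at -0.043 in KO cells and -0.032 in WT cells. Whether an r differed between the libraries was not tested.

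Among hypoxia targets, Bhlhe40 and Hilpda stood apart from members with r near 0. Of the 25 listed outside glycolysis, 15 were testable, of which 2 had r of 0.10 or more in the KO library, 1 in the WT library and 1 in both. Their median r was 0.022 in KO cells and 0.025 in WT cells. Of all genes tested, 2.52% reached 0.10 in the KO library, 1.21% in the WT library and 1.09% in both. Bhlhe40, a transcriptional repressor gene, was the member past 0.10 in both libraries, with 0.26 in KO cells and 0.18 in WT cells. Hilpda, whose product sits on lipid droplets and blocks their breakdown, had r of 0.15 in KO cells and 0.093 in WT cells. The other 13 lay between -0.040 and 0.057 in KO cells and between -0.015 and 0.057 in WT cells. Ndrg1, a stress-response gene, was the highest of them in WT cells at 0.057 and stood at 0.055 in KO cells, and the mitophagy receptor gene Bnip3l stood at -0.040 in KO cells and 0.0063 in WT cells. Summed over the list, r was 0.23 in KO cells and 0.16 in WT cells, and without Bhlhe40 it was 0.068 in KO cells and 0.069 in WT cells.

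Glycolytic genes, another large set of HIF targets, had no member past 0.10. None of 14 testable members had r of 0.10 or more in either library, and the median was -0.027 in KO cells and 0.0063 in WT cells. The lactate dehydrogenase gene Ldha had r of 0.015 in KO cells and 0.0016 in WT cells, the pyruvate kinase gene Pkm -0.041 in KO cells and 0.011 in WT cells, and Gapdh, which has many pseudogenes, -0.047 in KO cells and 0.0010 in WT cells. Between the libraries these genes and Vegfa went opposite ways. Of all genes ranked, 6.08% passed 1.5-fold upwards in the KO library and 2.87% downwards. Of 18 glycolysis genes with enough UMIs, 0 passed it upwards and 6 downwards. Their median log2 ratio was -0.47, and Gapdh was at 502 CPM in KO cells and 911 CPM in WT cells. Of 19 other hypoxia targets, 2 passed it upwards and 3 downwards, with a median log2 ratio of -0.027. Ankrd37, one of those lower in the KO library, had 35 KO and 214 WT UMIs, or 2.65 CPM in KO cells and 11 CPM in WT cells.

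Genes of the HIF pathway itself stayed near 0. All 6 testable subunits and oxygen sensors lay below 0.10 in both libraries. Hif1a message had r of 0.020 in KO cells and 0.084 in WT cells, its partner Arnt 0.0062 in KO cells and -0.040 in WT cells, and the ubiquitin ligase subunit gene Vhl -0.012 in KO cells and 0.020 in WT cells. These are message levels, and HIF activity is set largely by protein stability.

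Several smaller lists had members past 0.10 in both libraries too. Over all genes tested, 2.52% were past 0.10 in KO cells, 1.21% in WT cells and 1.09% in both. Of 7 testable genes of the TGF-beta response, the co-repressor genes Tgif1 (KO 0.27, WT 0.16) and Skil (KO 0.17, WT 0.11) were past 0.10 in both libraries. Of 8 stress and unfolded protein response genes, 4 were past it in KO cells and 2, Atf4 (KO 0.20, WT 0.11) and Herpud1 (KO 0.19, WT 0.12), in both. Crem was the only one of 13 cAMP-related genes past it in both. Of 6 other secreted factors, 4 were past 0.10 in KO cells, and Tgfb1, at 0.13 in KO cells and 0.12 in WT cells, was in both. Ifng (KO 0.17, WT 0.013), Ccl4 (KO 0.12, WT -0.0024) and Ccl3 (KO 0.11, WT -0.020) were past it in KO cells alone. Among 6 proteins that bind Vegfa mRNA or shape its processing, the decay factor gene Zfp36l2 had 0.20 in KO cells and 0.077 in WT cells, and the stabilising factor gene Elavl1 had 0.00012 in KO cells and -0.014 in WT cells. Genes of DNA synthesis and mitosis had 0 of 7 members past 0.10 in either library, with medians of 0.010 in KO cells and -0.0066 in WT cells.

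Heat shock genes marked the opposite end. The 5 lowest genes by mean r were Hspa1a, Tmsb4x, Hspa1b, Ctsd and Crip1. Hspa1a and Hspa1b, near-identical copies of the inducible chaperone gene whose UMIs the counting could split between them, had r of -0.21 and -0.19 in KO cells and of -0.16 and -0.13 in WT cells. The actin-sequestering gene Tmsb4x had -0.16 in KO cells and -0.17 in WT cells, and the lysosomal protease gene Ctsd had -0.12 in KO cells and -0.14 in WT cells. The LIM domain gene Crip1 had -0.12 in KO cells and -0.12 in WT cells. Of 10 testable heat shock genes, 3 had r of -0.10 or less in the KO library and 2 in the WT library, and Dnaja1 had 0.13 in KO cells and 0.023 in WT cells. Over all genes tested the shares at -0.10 or less were 0.306% in the KO library and 0.221% in the WT library. Hspa1a stood at 114 CPM in positive and 550 CPM in negative KO cells, and at 568 CPM in positive and 1173 CPM in negative WT cells. Heat shock and immediate early genes respond to the handling of dissociated tissue, and the part of handling in these values was not tested.

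The relation was graded with the Vegfa count. Thinned KO cells with 0, 1, 2 to 3 and 4 or more Vegfa UMIs numbered 1782, 420, 275 and 172, and WT cells numbered 3059, 287, 104 and 13. Summed NF-kB genes stood at 5110, 7335, 8865 and 10260 CPM over these classes in KO cells, and at 2749, 3911, 5778 and 8416 CPM in WT cells. From the lowest to the highest class that was 2.01-fold in the KO library and 3.06-fold in the WT library, whose highest class held 13 cells. Immediate early genes reached 1.79-fold in KO cells and 1.71-fold in WT cells, and hypoxia targets 1.44-fold in KO cells and 1.47-fold in WT cells. Without Bhlhe40, which stood at 916 CPM in the highest and 525 CPM in the lowest class of KO cells and at 986 and 389 CPM in those of WT cells, the hypoxia sum ended at 1.23-fold in KO cells and 0.960-fold in WT cells. Glycolysis genes ended at 0.918-fold in KO cells and 0.737-fold in WT cells, and heat shock genes at 0.862-fold in KO cells and 0.649-fold in WT cells. Hspa1a alone stood at 550, 144, 68.4 and 114 CPM over the classes in KO cells and at 1173, 646, 416 and 92.5 CPM in WT cells.

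**Figure D3:**
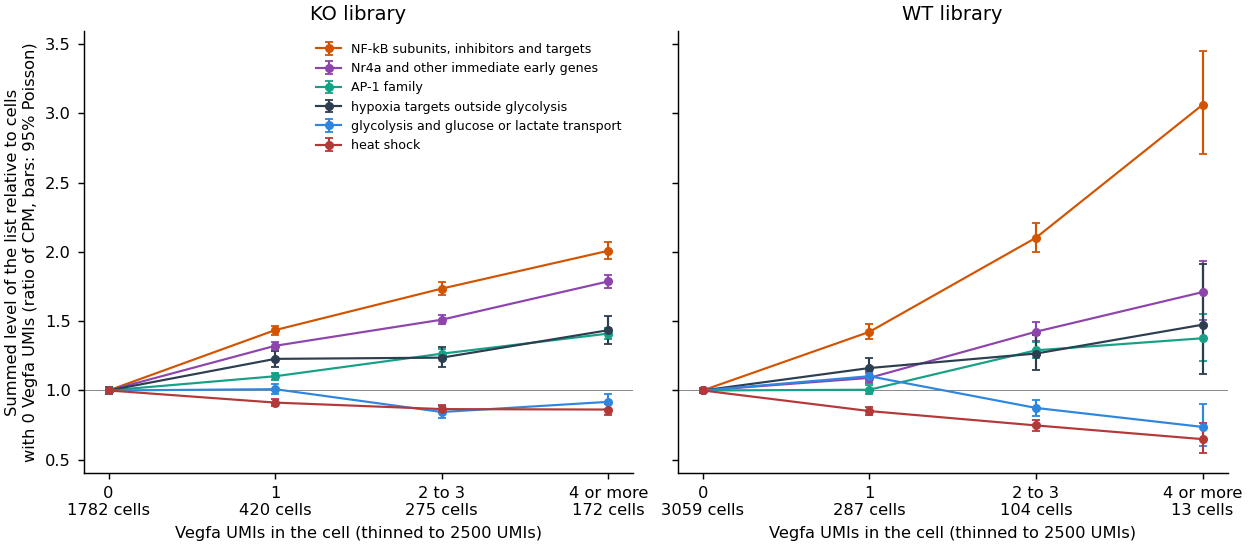
Summed level of 6 gene lists in cells with 0, 1, 2 to 3 and 4 or more Vegfa UMIs (cells thinned to 2500 UMIs), relative to cells with 0, in the KO library (left) and the WT library (right), with 95% Poisson intervals. NF-kB genes end highest, at 2.01-fold in KO cells and 3.06-fold in WT cells, while glycolysis and heat shock genes end below 1 in both.

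Taken as a sum, NF-kB genes had r with Vegfa of 0.42 in KO cells and 0.28 in WT cells, and a partial r of 0.20 in KO cells and 0.19 in WT cells given the other list sums and depth. The partial r was 0.061 in KO cells and 0.069 in WT cells for hypoxia targets, and 0.093 in KO cells and 0.022 in WT cells for immediate early genes. It was -0.041 in KO cells and 0.063 in WT cells for AP-1, and 0.0031 in KO cells and 0.028 in WT cells for glycolysis. Heat shock genes kept -0.11 in KO cells and -0.12 in WT cells. Vegfa itself was in none of the sums.

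Vegfa was concentrated in a few clusters, which were drawn over both libraries together without Vegfa among the variable genes. Cluster 5 stood at 548 CPM in its 543 KO cells and 202 CPM in its 56 WT cells. Its top genes began with Mir155hg, Cfap46, Ier3 and Grasp, with Nfkbid and Csrnp1 lower among them. Cluster 1 stood at 485 CPM in 1037 KO cells and 392 CPM in 48 WT cells. Its top genes included Maff, Slc15a2, Tmem88 and Ier5l, with Cxcr4 and Nfkbid lower among them. Together these 2 clusters held most KO Vegfa, with 55.0% of KO Vegfa UMIs in cluster 1 and 29.0% in cluster 5, against 7.53% of WT Vegfa UMIs in cluster 1 and 3.60% in cluster 5. In the WT library the largest part, 36.1% of Vegfa UMIs, was in cluster 3, which held 5.84% of KO Vegfa UMIs. Its top genes included Ccr7, Ndrg1, Kit and Ctla4. Its 235 KO cells stood at 148 CPM and its 590 WT cells at 115 CPM. The clusters lowest in Vegfa in the KO library were cluster 2, led by Hspa1b, with 29.2 CPM in KO cells and 19.2 CPM in WT cells, and the T-like cluster 9, with 30.2 CPM in KO cells and 5.24 CPM in WT cells.

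Neighbours in the order of cluster levels were often not separated by counting error. In KO cells the levels of clusters 5 (517 to 581 CPM) and 1 (465 to 506 CPM) had separate intervals, cluster 8, the ILC-like cells led by Tmem176a and Tmem176b, followed at 294 CPM (251 to 343), and clusters 3 and 4 at 148 and 130 CPM overlapped. Below these, clusters 10, 0, 7, 9 and 2 lay between 29.2 and 42.0 CPM with overlapping intervals. In WT cells cluster 1 came first at 392 CPM (316 to 482), followed by clusters 5, 8 and 3 at 202, 135 and 115 CPM. Cluster 10, led by mitotic genes such as Ccna2, was at 42.0 CPM in its 20 KO cells and 41.5 CPM in its 131 WT cells. The clusters are compared by number here, because the top genes of cluster 3 hold Kit, a mast cell marker, and no NK marker, although all 10 NK markers were detected in it. The NK-like clusters were pooled only as an alternative setting, which gave a log2 ratio of 2.32.

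Within clusters the KO cells were above the WT cells by varying amounts. The log2 ratio was 1.44 in cluster 5 (0.999 to 1.91), 1.39 in cluster 0 (0.88 to 1.92), 1.12 in cluster 8 (0.77 to 1.48) and 0.79 in cluster 4 (0.33 to 1.22). It was 0.36 in cluster 3 (0.12 to 0.60) and 0.31 in cluster 1 (0.0012 to 0.63). In clusters 2, 6 and 10 the ratios were 0.60, 0.078 and 0.016, with intervals that included 0. Clusters 7 and 9 had ratios of 2.28 and 2.53, but on 5 and 10 KO UMIs and 8 and 3 WT UMIs. The clusters were drawn from the same counts, so a cluster held mostly by 1 library may be that library's cells in another state, and the values cannot tell a shift in make-up apart from a change within cells.

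**Figure D4:**
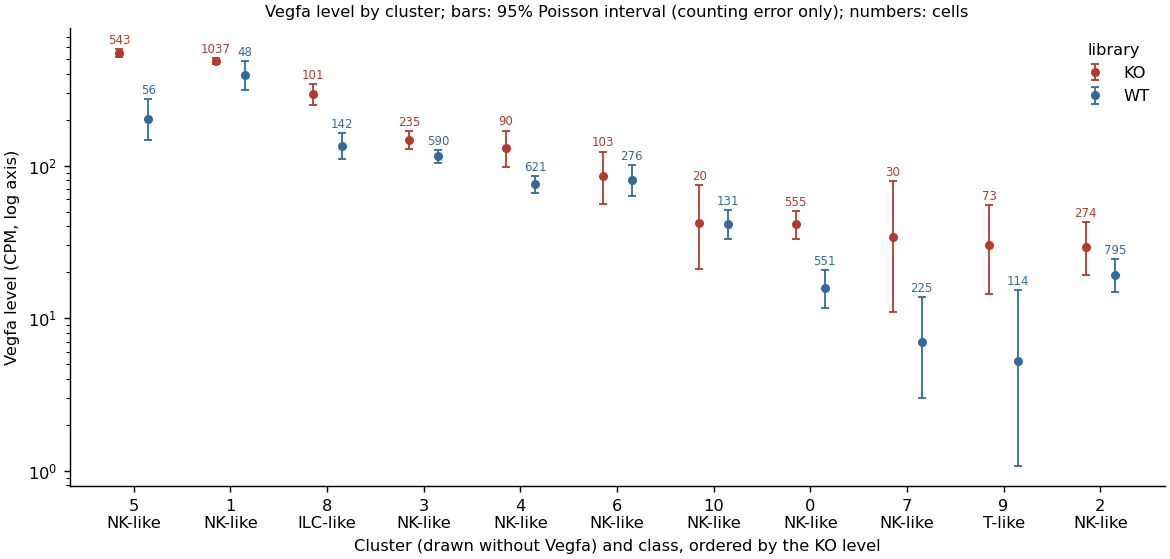
Vegfa level (CPM, log axis) in each cluster of at least 20 cells, with KO cells in red at the left and WT cells in blue at the right of each pair, 95% Poisson intervals and cell numbers above. Clusters 5 and 1 lead in the KO library at 548 and 485 CPM, and KO points lie above WT points in all 11 clusters, with overlapping intervals in several.

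Within clusters of at least 200 cells of a library, 11 in all, the relation to the summed NF-kB genes was kept in part. Its r with Vegfa lay between 0.016 and 0.27 and was 0.10 or more in 5 of them, namely KO clusters 1 (0.16) and 5 (0.19) and WT clusters 3 (0.27), 4 (0.20) and 6 (0.19). Summed hypoxia targets lay between -0.045 and 0.14 and reached 0.10 in 1 of the 11, WT cluster 3, where the value without Bhlhe40 was 0.063. Without Bhlhe40 the sum lay between -0.13 in KO cluster 5 and 0.13 in KO cluster 3, the 1 where it reached 0.10. Glycolysis genes lay between -0.091 and 0.15 and also reached it in 1, WT cluster 2. AP-1 and immediate early genes each reached it in 3. Summed heat shock genes lay between -0.13 in KO cluster 3 and 0.11 in WT cluster 0. Their r was above 0 in KO cluster 5 and WT clusters 3 and 4 too, and below 0 in the rest.

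Cells of the same list level were then set side by side. Over quintiles of the NF-kB sum, cut over both libraries together, Vegfa stood at 41.4, 55.0, 124, 307 and 566 CPM in KO cells and at 21.6, 31.9, 67.0, 130 and 267 CPM in WT cells. It was higher in each next quintile in both libraries, and the log2 ratio lay between 0.79 and 1.25, below the unmatched 2.25. Over quintiles of the hypoxia sum the log2 ratio lay between 1.99 and 2.31, close to the unmatched one, although Vegfa was higher in each next quintile here too, with 136 CPM in KO cells and 27.4 CPM in WT cells of the lowest quintile and 456 CPM in KO cells and 115 CPM in WT cells of the highest. Without Bhlhe40 in the sum these steps were not steady, with 283, 226, 266, 306 and 380 CPM in KO cells and 52.6, 56.2, 52.6, 64.8 and 80.8 CPM in WT cells. For the immediate early sum the log2 ratio lay between 0.50 and 1.79, also below the unmatched one. For the AP-1 sum it lay between 1.36 in the lowest quintile and 2.65 in the highest. Over the AP-1 quintiles Vegfa stood at 71.4, 188, 291, 384 and 482 CPM in KO cells. In WT cells it stood at 27.9, 67.0, 83.4, 88.6 and 76.6 CPM. Over quintiles of the glycolysis sum Vegfa stood at 374, 337, 259, 255 and 156 CPM in KO cells and at 108, 64.1, 60.0, 61.2 and 51.9 CPM in WT cells, with WT intervals that overlapped over the 4 highest quintiles. The most glycolytic quintile was also the deepest, with a median of 4648 UMIs in KO cells and 5627.5 UMIs in WT cells, against 3422 and 3496 UMIs in the lowest, and its unthinned share of Vegfa-positive cells was the highest of the 5, at 43.2% in KO cells and 21.9% in WT cells.

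Both axes were combined in 25 bins, quintiles of the hypoxia sum by quintiles of the summed NF-kB, AP-1 and immediate early genes. Vegfa was higher in KO cells than in WT cells in 25 of 25 bins, and in 22 the interval of the ratio lay above 0. The bins were cut from the same counts, and the intervals take UMIs as independent although Vegfa was unevenly spread over cells. The log2 ratio ranged between 0.24 and 3.98 with a median of 1.31, and the smallest bin held 31 cells. In the highest bin on both axes 440 KO cells stood at 637 CPM and 68 WT cells at 258 CPM, and in the lowest 165 KO cells stood at 27.9 CPM and 231 WT cells at 9.12 CPM. With KO bins weighted to the WT share of cells, the log2 ratio was 1.32, or 2.50-fold, against the unweighted 4.76-fold. With the hypoxia sum alone in 10 bins it was 2.11.

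**Figure D5:**
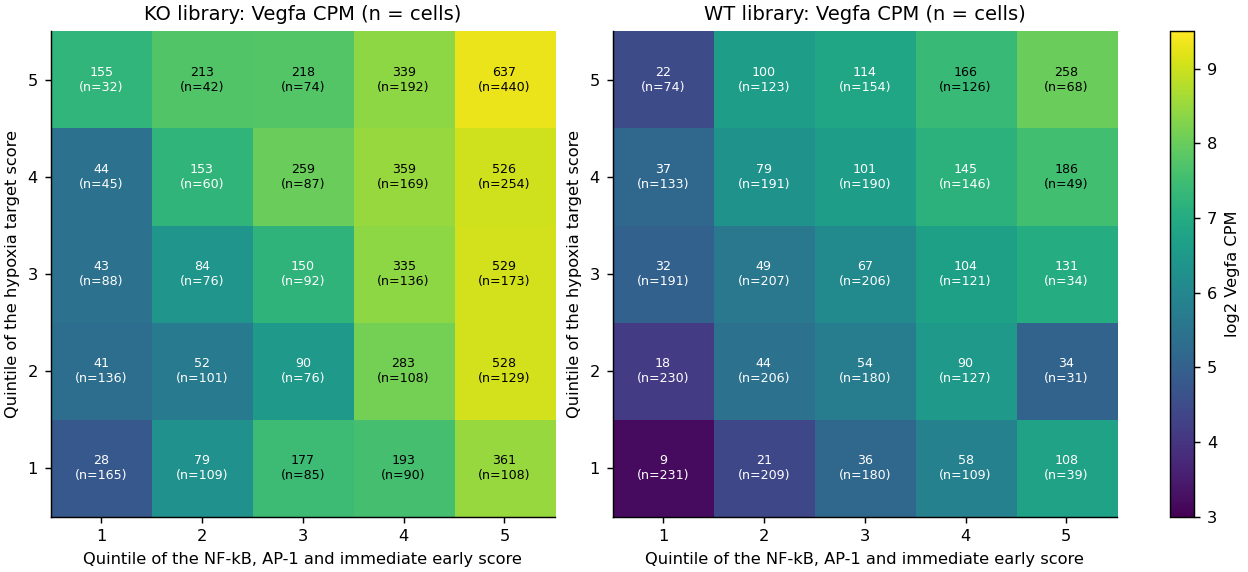
Vegfa level (CPM in each square, colour on a log2 scale) by quintile of the NF-kB, AP-1 and immediate early sum (horizontal) and of the hypoxia target sum (vertical), for the KO library (left) and the WT library (right), with the number of cells in each square. Levels differ mainly along the horizontal axis and are highest, at 637 CPM in KO cells and 258 CPM in WT cells, at the upper right.

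Markers of other cells were checked beside these values, since macrophages and endothelial or stromal cells could carry Vegfa or its partners into a sort. Cells with 2 or more UMIs of B cell, neutrophil, platelet or fibroblast markers numbered at most 6 in either library. Of the 5 fibroblast markers 4 were at 0 UMIs in the KO library and 3 in the WT library, and of the 5 endothelial markers 3 were at 0 in each. Even so, 112 KO cells (3.65%) and 188 WT cells (5.29%) had 2 or more UMIs of endothelial markers, and these stood at 296 CPM of Vegfa in the KO library and 41.0 CPM in the WT library. In the KO library Kdr held 1 UMI, so 1 other marker supplied all the rest of the endothelial marker UMIs. Summed endothelial markers stood at 61.4 CPM in Vegfa-positive and 57.7 CPM in Vegfa-negative KO cells, and at 66.3 CPM in positive and 53.4 CPM in negative WT cells. Macrophage or monocyte markers were spread thinly, with 2 or more UMIs in 1014 KO cells (33.1%) and 1242 WT cells (34.9%). Those cells stood at 243 CPM of Vegfa in the KO library and 50.2 CPM in the WT library, below their libraries' means, while their unthinned shares of Vegfa-positive cells, 42.4% in the KO library and 19.7% in the WT library, were above the 40.4% of all KO cells and the 18.5% of all WT cells. They were also deeper, with medians of 4585.5 UMIs in the KO library and 5681.5 UMIs in the WT library. Summed macrophage markers stood at 288 CPM in Vegfa-positive and 363 CPM in Vegfa-negative KO cells, and at 243 CPM in positive and 271 CPM in negative WT cells. Dendritic markers went opposite ways, at 108 CPM in positive and 209 CPM in negative KO cells, and at 302 CPM in positive and 192 CPM in negative WT cells. ILC markers stood at 120 CPM in positive and 105 CPM in negative KO cells, and at 168 CPM in positive and 88.5 CPM in negative WT cells, and T cell markers at 30.9 CPM in positive and 109 CPM in negative KO cells, and at 71.3 CPM in positive and 144 CPM in negative WT cells. Cells with 2 or more ILC marker UMIs stood at 278 CPM of Vegfa in the KO library and 107 CPM in the WT library. Hemoglobin and other erythroid markers reached 2 or more UMIs in 33.9% of KO cells, which stood at 249 CPM of Vegfa, and in 15.8% of WT cells, which stood at 47.3 CPM. The part of these transcripts in the Vegfa values was not tested, except as follows. Cells holding 2 or more UMIs summed over T, B, macrophage, dendritic, neutrophil, mast cell and erythroid markers were left out in an alternative. With the remaining 863 KO and 1134 WT cells the log2 ratio of Vegfa was 2.37. ILC, platelet, fibroblast and endothelial markers were not part of that filter.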

How the data were processed

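The authors deposited whole-number UMI counts per gene symbol and barcode for 2 libraries, not normalized, as the values show. The submitters' processing notes name mm10, Seurat and Cell Ranger 2.0.2 but no role for each, and how genes were annotated, cells called or doublets removed is not given in the sources used. Kept barcodes had 500 or more genes and no more than 10% mitochondrial UMIs, and depths per cell ran between 1464 and 29202 UMIs in the KO table and between 2364 and 52557 in the WT table. Levels are UMIs summed over cells per 1e6 UMIs. Intervals are exact 95% Poisson, conditional binomial or Clopper-Pearson intervals. Clusters used scanpy 1.11.5 and leidenalg 0.10.2 (1999 variable genes, 30 components, 15 neighbours, resolution 0.8, no integration). Names rest on marker lists and on top genes ranked by fold in share of cells, a ranking chosen after the data had been seen. No doublet caller was relied on. Vegfa and the gene lists were chosen with earlier results of these data known. Named genes were Vegfa, the 15 highest and 5 lowest by mean r, up to 6 most abundant members per list, the VEGF family, and any hypoxia, AP-1 or NF-kB member. Positions came from GENCODE M21, where 132 of 135 named symbols had 1 record, and the promoter from RefSeq. The correlation, the interval of the ratio and the thinning were tried on simulated counts, and the other steps were not. The interval was tried on Poisson counts, which lack the uneven spread over cells seen for Vegfa.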

Additional observations from a re-analysis of the deposited data

How the results depend on the processing

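Of 55 alternatives to the reported values, 38 stayed within their counting interval or within 1.5 times a count, 17 moved and 0 reversed. Only the log2 ratios could reverse, because shares and gene counts cannot fall below 0. For the state-weighted ratio, the interval of the unweighted ratio was shifted onto it. The log2 ratio of Vegfa (2.25) was 2.37 without cells holding T, B, myeloid, mast cell or erythroid markers. Without the 1% of cells with the most Vegfa it was 2.36. It was 0.68 with KO clusters weighted to the WT make-up and 0.71 without clusters 1 and 5, these 2 chosen after seeing the data. Outside clusters 1 and 5, 1487 KO cells stood at 91.4 CPM and 3451 WT cells at 55.8 CPM. The share of cells with Vegfa was 25.1% in KO and 7.93% in WT cells at 1500 UMIs, 39.7% in KO and 14.97% in WT cells at 4000, 40.4% in KO and 18.5% in WT cells unthinned, and 16.9% in KO and 3.38% in WT cells at 2 or more UMIs. Genes at r of 0.10 or more in both libraries numbered 31 after thinning, and NF-kB members numbered 6 at a minimum of 1000 UMIs, where fewer are tested. The state-weighted log2 ratio (1.32) was 1.43 with 3 by 3 bins, 2.11 with the hypoxia sum alone and 1.49 with WT bins weighted to the KO make-up. Apart from thinning, the weighting and the higher minimum, the cause of these moves was not tested. No paired analysis was possible because each genotype had 1 library. Depth limits the shares, and T-like shares bound the signal from free RNA only roughly.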
